A study of Mus musculus with 12 samples.

Results

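The E2F transcription factors and 2 of the pocket proteins that bind them were examined in murine Lin-Sca+Kit+ (LSK) bone marrow (BM) cells. The cells were compared with and without BCR::ABL1, the fusion kinase of chronic myeloid leukaemia (CML). The members were chosen by gene symbol, E2f1 to E2f8 together with Rbl1 (p107) and Rbl2 (p130), and all 10 were found among the 56748 genes of the count files and passed the filter on low counts. Bulk RNA-seq was available for 12 libraries, each from 1 recipient mouse. Frozen, pooled BM of SCLtTA/BCR-ABL double transgenic (DTG) mice, which carry the CD45.2 allele, was injected into irradiated B6.SJL (CD45.1) recipients that were 8 to 12 weeks old, and every recipient drank tetracycline (TET), which silences the transgene, while the graft recovered. TET was then kept in the 6 CTRL mice (BCR::ABL1-) and removed for 2 weeks in the 6 CML 2wk mice (BCR::ABL1+). Exposure to TET itself and BCR::ABL1 therefore cannot be told apart. Regulatory sequence of SCL directs the tTA activator to stem and progenitor cells. The donor cells of all 12 mice carried both transgenes, and the human fusion transcript itself was not counted. The labels give every CTRL recipient as male and every CML 2wk recipient as female, whereas the design text and the methods speak of both sexes. If the labels hold, sex as labelled and BCR::ABL1 cannot be told apart. The sorted CD45.2+ cells came from the donor pool, which the methods describe as marrow of DTG mice of both sexes.

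E2F factors bind the promoters of genes for DNA replication and cell division. E2f1, E2f2 and E2f3 are the activators, E2f4 and E2f5 act mainly as repressors held on DNA by Rbl1 and Rbl2, E2f6 represses without a pocket protein as part of a Polycomb complex, and E2f7 and E2f8 are atypical repressors that bind DNA without a DP partner. Cyclin D and cyclin E kinases phosphorylate pocket proteins and release E2F. Rbl1 and Rbl2 also join E2F4, DP and the MuvB core in the DREAM complex, which holds cell cycle genes down in quiescent cells, and LSK cells of healthy marrow include the quiescent stem cells.

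Several members have E2F or DREAM letters in their own promoters, and these sequences are shown because E2F and DREAM are the regulators that the family itself forms. Members were called lower in CML 2wk both with such a word (E2f2, E2f3, E2f7, E2f8 and Rbl2, but not Rbl1) and without one in the window (E2f1 and E2f6). All 250 bases of the E2f1 window are annotated as exon, so a word upstream of other starts could be missed. The E2f6 call was lost under 16 of 22 other settings of the analysis, and E2f4 and E2f5 had no window. Whether the words relate to the changes was not tested. RefSeq promoter windows (GRCm38.p6, 250 bases upstream of an annotated start) were at hand for 8 of the 10 members, in 10 windows. An E2F word (TTTCCCGC, TTTCGCGC, TTTGCCGC or TTTGGCGC, either strand) stood in 3 of those 10 windows and in 1.86% of 32851 windows of all genes. The cell cycle homology region (CHR) letters TTTGAA, to which MuvB binds, stood in 4 of the 10 windows (E2f2, E2f3, E2f8 and Rbl2) and in 16% of all windows, again on either strand. In the 30-base stretches that follow, written 5′ to 3′ on the strand of the gene, capitals mark the word.
E2f3, E2F word, chr13:29986064-29986093, minus strand: aatatggtttgaaaagccgGCGGGAAAtct
E2f7, E2F word, chr10:110745230-110745259, plus strand: cccgcgtccccGCGGGAAAcgctcccgcgt
Rbl1, E2F word, chr2:157204535-157204564, minus strand: caagaaggcgatTTTCGCGCgctttgtcgc
E2f8, CHR letters, chr7:48881599-48881628, minus strand: gagcgggttaatTTCAAAtcgggggctgga
Rbl2, CHR letters, chr8:91069844-91069873, plus strand: ggtctttttctcTTCAAAcgagccttctga
The words of E2f3 (bases -11 to -4 from the start), Rbl1 (-18 to -11) and E2f8 (-20 to -15) lay close to the annotated start, whereas those of E2f7 (-198 to -191) and Rbl2 (-201 to -196) lay far upstream. E2f3 was the member with both kinds of word in 1 window, since TTTGAA also stood at bases -23 to -18. E2f3 has a further annotated start whose window held neither word. The same was so for the upstream start of E2f2. Its CHR letters stood in the window of a downstream start, which shares 46 bases with annotated exons. A match is a description of the letters and not of binding, which was not measured here.

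The whole upstream windows of E2f3 and Rbl1 are given because the first is an activator that fell and the second a pocket protein that did not pass the test, and both hold an E2F word (capitals) within 20 bases of the start.
E2f3, chr13:29986064-29986313, minus strand: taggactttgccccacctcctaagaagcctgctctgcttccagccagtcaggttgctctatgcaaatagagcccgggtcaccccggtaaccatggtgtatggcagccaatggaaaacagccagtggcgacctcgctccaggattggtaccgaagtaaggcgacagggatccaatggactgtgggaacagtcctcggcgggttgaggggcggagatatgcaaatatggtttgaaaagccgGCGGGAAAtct
Rbl1, chr2:157204535-157204784, minus strand: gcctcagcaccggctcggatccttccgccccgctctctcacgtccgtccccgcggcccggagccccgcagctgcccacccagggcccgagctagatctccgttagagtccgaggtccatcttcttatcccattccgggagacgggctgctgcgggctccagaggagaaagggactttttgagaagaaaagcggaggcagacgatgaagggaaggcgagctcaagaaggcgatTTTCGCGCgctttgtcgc

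Libraries held 22804754 to 41832868 counts in CTRL and 16150817 to 25070105 in CML 2wk (exact permutation test, two-sided, p = 0.0108), and the mitochondrial share of counts was higher in every CML 2wk library (2.26 to 2.97% against 0.816 to 1.29%, p = 0.00216, the smallest that exact permutation of 6 against 6 allows). The summed level of 9 LSK and stem cell markers was 2564 to 2970 CPM (read counts scaled by library size) in CTRL and 1371 to 1805 in CML 2wk, with 8 of the 9 genes lower. Markers of other lineages moved with the groups as well. For comparison, 29% of all genes tested were called lower and 30.6% higher. Summed over their lists, mast cell and basophil markers stood at 76.4 to 166 CPM in CTRL and 390 to 2273 in CML 2wk (5 of 7 higher), monocyte markers at 158 to 206 and 329 to 675 (3 of 8 higher), erythroid markers at 84.3 to 160 and 26.4 to 66.4 (7 of 10 lower) and neutrophil markers at 2321 to 4659 and 3115 to 8541 (4 of 9 higher, 4 lower). Megakaryocyte markers, with Gp6 at 0 in 6 or more libraries, summed to 221 to 258 CPM and 78.3 to 244 (4 of 4 tested lower). Stromal markers summed to 90.4 to 112 CPM and 65.5 to 960 (4 of 7 tested higher). B cell markers summed to 28.4 to 94.3 CPM and 25.7 to 64.3 (2 of 6 lower). T and NK cell markers summed to 72.7 to 96.9 CPM and 86.1 to 191 (2 of 5 tested higher, 1 lower). Nkg7 alone made up 67.0 to 91.8 CPM of that sum in CTRL and 84.3 to 186 in CML 2wk. Cd8a of the same list was lower (log2 fold change -1.89). The highest LSK and stem cell, erythroid, mast cell, megakaryocyte and stromal sums of CML 2wk all belonged to replicate 2. High stromal values were not confined to 1 library. Col1a1, Col1a2, Col3a1 and Sparc, the stromal genes called higher, each lay above the CTRL range in 2 CML 2wk libraries. The part of these cell types, of depth and of mitochondrial RNA in the results that follow was not tested. In bulk samples fewer cells of a type and less RNA per cell cannot be told apart.

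E2F family RNA was lower in BCR::ABL1+ LSK cells. Of the 10 members, 8 were lower, 1 was higher (E2f5) and 1 did not pass (Rbl1) in edgeR's quasi-likelihood test at a Benjamini-Hochberg adjusted p under 0.05 over 18438 genes. The background was high, as 59.5% of all genes tested were called, 29% lower and 30.6% higher. The median log2 fold change (CML 2wk over CTRL) was -0.49 over the 10 members and 0.07 over all genes tested. In 7 members, E2f1, E2f2, E2f3, E2f4, E2f7, E2f8 and Rbl2, every CML 2wk library lay below every CTRL library, which was so for 20.6% of all genes tested, and these 7 were called lower under each of 22 other settings of the analysis. Without CML 2wk replicates 2 and 4 the count was 8 lower and 0 higher.

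**Figure D1:**
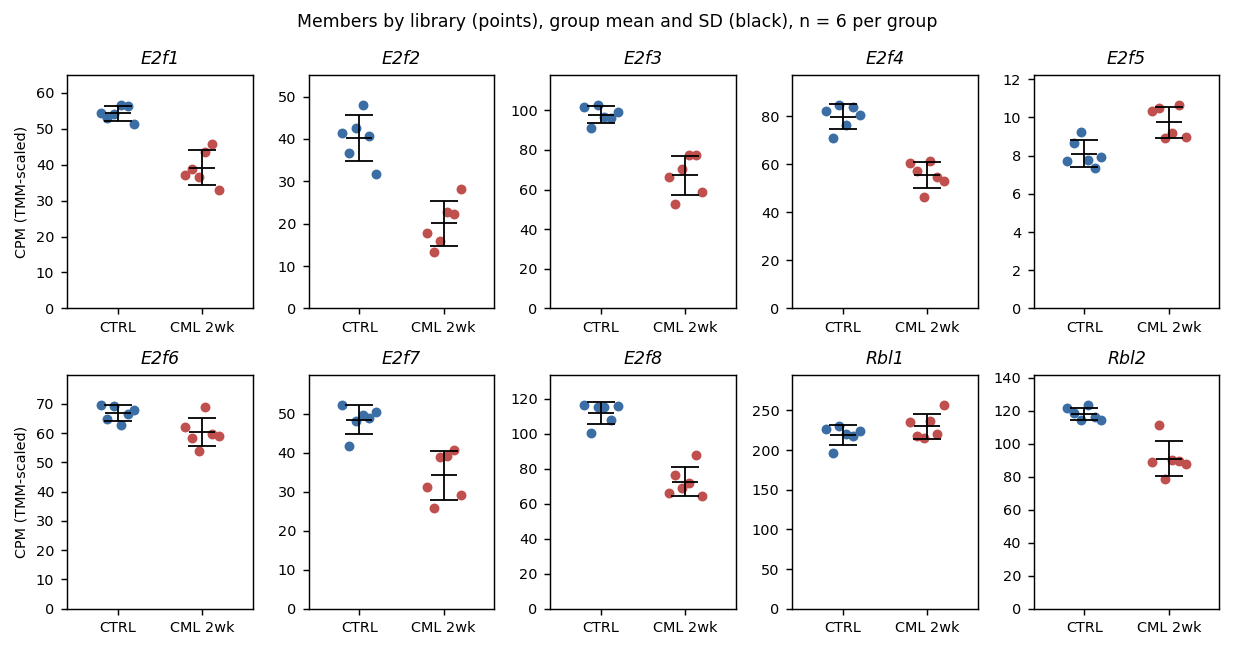
TMM-scaled CPM of each member (vertical axes from 0, scaled per gene) in the CTRL and CML 2wk libraries; points are libraries, black bars the group mean and SD, n = 6 per group. The groups are apart for E2f1, E2f2, E2f3, E2f4, E2f7, E2f8 and Rbl2, and overlap for E2f5, E2f6 and Rbl1.

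The activators fell, E2f2 most. E2f2, an activator known for its part in blood cell proliferation and red cell maturation, ranged from 31.7 to 48.0 CPM (median 41.0) in CTRL and measured 17.8, 13.3, 15.9, 22.8, 22.4 and 28.1 CPM in CML 2wk replicates 1 to 6. Its groups did not overlap, although the highest CML 2wk library came near the lowest CTRL one. E2f2 fell by 50.1% (log2 fold change -1.0, SE 0.158, edgeR adjusted p = 7.3e-05). E2f3, which drives entry into S phase, had 91.1 to 102.6 CPM (median 97.7) in CTRL and 66.4, 52.8, 70.1, 77.5, 77.3 and 58.8 CPM in the CML 2wk libraries. All 6 CML 2wk values were below the CTRL range, with replicates 2 and 6 the lowest, and the log2 fold change was -0.54 (SE 0.087, edgeR adjusted p = 8.62e-05). E2f1, the activator that can also induce apoptosis, had 51.2 to 56.5 CPM (median 54.2) in CTRL and 37.1, 38.8, 36.6, 43.6, 45.8 and 32.8 CPM in CML 2wk. Here too the groups were apart, and E2f1 fell by 27.8% (log2 fold change -0.47, SE 0.0763, edgeR adjusted p = 9.71e-05).

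Of the pocket-bound repressors, E2f4 fell and E2f5 rose slightly. E2f4, the E2F of DREAM, had 71.0 to 84.6 CPM (median 81.4) in CTRL and 46.4 to 61.4 CPM (median 55.8) in CML 2wk, with no overlap, and its log2 fold change was -0.52 (SE 0.0719, edgeR adjusted p = 2.09e-05). E2f5, its close relative, was at 7.35 to 9.24 CPM (median 7.85) in CTRL and 8.94 to 10.7 CPM (median 9.74) in CML 2wk. The E2f5 ranges overlapped, and the rise of 20.4% (log2 fold change 0.27, SE 0.103, edgeR adjusted p = 0.0363) lost its call under 12 of the 22 other settings, with adjusted p from 0.0118 to 0.219. Every one of those settings gave E2f5 a positive log2 fold change, from 0.20 to 0.34.

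E2f6, the pocket-independent repressor, changed least among the E2F genes. It had 62.6 to 69.4 CPM (median 67.2) in CTRL and 62.2, 58.3, 54.0, 68.8, 59.8 and 59.1 CPM in CML 2wk, where replicate 4 lay inside the CTRL range and the other libraries below it. The log2 fold change was -0.15 (SE 0.0599, edgeR adjusted p = 0.0484), and 16 of the 22 other settings did not call it (adjusted p from 0.00937 to 0.291).

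Both atypical repressors fell. E2f8 had 100.6 to 116.3 CPM (median 115.4) in CTRL and 66.3, 76.4, 69.0, 72.1, 88.0 and 64.7 CPM in CML 2wk, all below the CTRL range. E2f8 fell by 35.0% (log2 fold change -0.62, SE 0.0749, edgeR adjusted p = 6.07e-06), the smallest adjusted p among the E2F genes. E2f7, with which E2f8 acts as a pair to limit E2F1 activity, had 41.6 to 52.1 CPM (median 49.3) in CTRL and 31.2, 25.9, 38.9, 39.2, 40.6 and 29.1 CPM in CML 2wk. The highest CML 2wk library stood just under the lowest CTRL library, and the log2 fold change was -0.51 (SE 0.108, edgeR adjusted p = 0.000994).

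The 2 pocket proteins examined differed. Rbl1 (p107), which accumulates in cycling cells, had 196.2 to 230.0 CPM (median 222.4) in CTRL and 235.1, 217.9, 215.1, 237.3, 219.7 and 256.4 CPM in CML 2wk. Its groups overlapped, the log2 fold change was 0.07 with a 95% interval of -0.06 to 0.20 (edgeR adjusted p = 0.324), an interval that spans 0. With upper-quartile scaling alone, Rbl1 passed the test (log2 fold change 0.15, adjusted p = 0.0269). Rbl2 (p130), the pocket protein typical of quiescent cells, had 114.6 to 123.3 CPM (median 117.5) in CTRL and 89.1, 111.2, 78.4, 90.4, 89.3 and 88.0 CPM in CML 2wk. All 6 CML 2wk values were below the CTRL range, with replicate 2 closest to it. With all libraries Rbl2 fell by 22.9% (log2 fold change -0.38, SE 0.0709, edgeR adjusted p = 0.000364), and the log2 fold change was -0.47 (adjusted p = 1.81e-05) without CML 2wk replicates 2 and 4. Within a library, the level of Rbl1 per kb of exon was 2.09 to 2.53 times that of Rbl2 in CTRL (median 2.35) and 2.47 to 3.67 times in CML 2wk (median 3.32), ranges that overlap slightly.

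**Figure D2:**
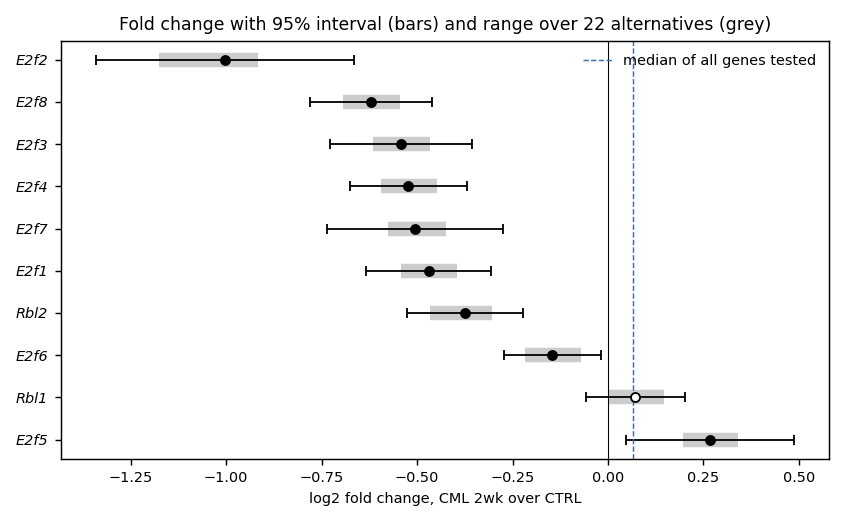
Log2 fold change (CML 2wk over CTRL, horizontal axis) of each member with its 95% interval; filled points passed edgeR's test, the open point did not, grey bars span the 22 other settings and the dashed line is the median of all genes tested (0.07). E2f2 lies lowest at -1.0, E2f1, E2f3, E2f4, E2f7, E2f8 and Rbl2 lie between -0.62 and -0.38, and the grey bars of all 10 genes are narrower than their intervals.

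Compared per length, Rbl1 was the most abundant member and E2f4 the most abundant E2F in both groups. In mean CPM per kb of exon (exon union of GENCODE M21), the CTRL order was Rbl1 36.6, E2f4 32.5, E2f8 20.6, E2f3 18, E2f1 17.2, Rbl2 15.6, E2f6 11.8, E2f2 8.24, E2f7 5.38 and E2f5 4.55. Neighbours whose library ranges overlapped in CTRL were Rbl1 and E2f4, E2f8 and E2f3, E2f3 and E2f1, E2f1 and Rbl2, and E2f7 and E2f5. In CML 2wk the order was Rbl1 38.4, E2f4 22.6, E2f8 13.4, E2f1 12.4, E2f3 12.4, Rbl2 12.1, E2f6 10.7, E2f5 5.48, E2f2 4.11 and E2f7 3.79. There the ranges of Rbl1, E2f4 and E2f8 were apart from each other, those of E2f8, E2f1, E2f3, Rbl2 and E2f6 overlapped from one neighbour to the next, and so did those of E2f5, E2f2 and E2f7. E2f5 was thus last of the 10 genes in CTRL and ahead of E2f2 and E2f7 in CML 2wk, by mean level only.

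The summed E2F level, E2f1 to E2f8, was 109 to 123 CPM per kb (median 119) in CTRL and 78.2 to 92.8 (median 83.0) in CML 2wk, with no overlap. As shares of that sum, which do not depend on the scaling between libraries, E2f6 made up 9.30 to 10.4% in CTRL and 11.4 to 13.2% in CML 2wk, and E2f5 3.46 to 4.43% and 5.55 to 7.25%. Both sets of ranges were apart. The shares of the activators (35.0 to 38.3% in CTRL, 30.5 to 35.9% in CML 2wk), of E2f4 and E2f5 together (29.9 to 32.2% and 30.4 to 36.0%) and of E2f7 and E2f8 together (21.1 to 23.0% and 18.4 to 22.3%) overlapped between groups. These shares are descriptions, with no test.

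**Figure D3:**
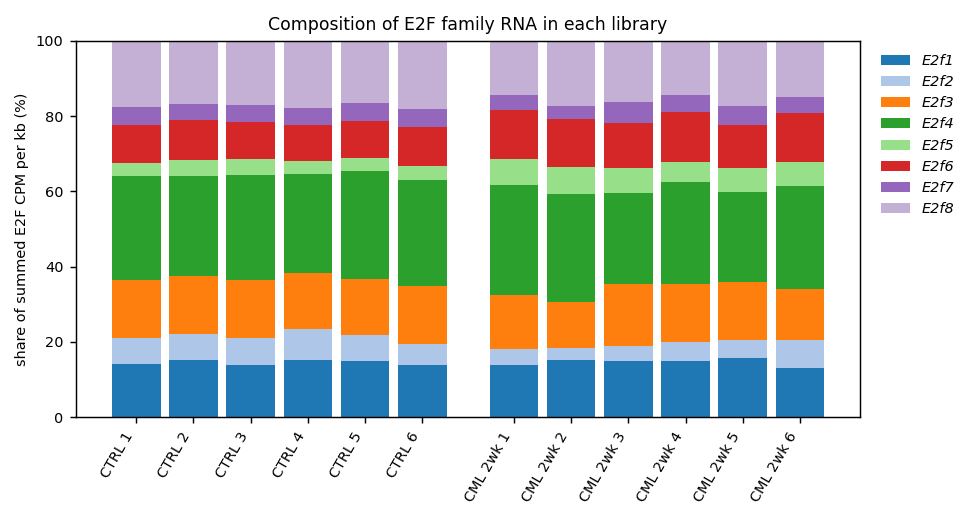
Share (%) of each E2F gene in the summed CPM per kb of E2f1 to E2f8 (vertical axis), 1 stacked bar per library. The red E2f6 segment spans 9.30 to 10.4% in CTRL and 11.4 to 13.2% in CML 2wk, and E2f4 is the widest segment of every bar.

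The CML 2wk libraries varied more, over all genes (biological coefficient of variation of edgeR 10.9% in CTRL, 32.6% in CML 2wk and 24.6% without CML 2wk replicate 2) as well as in the members. The SD of log2 CPM over 6 libraries was larger in CML 2wk for 9 of the 10 members, and it ran from 0.044 to 0.20 in CTRL and from 0.097 to 0.39 in CML 2wk. By library number, CTRL replicates 1 to 5 form a run of their own, and CML 2wk replicates 1 to 5 form another. Among these libraries the run of numbers and BCR::ABL1 cannot be told apart, and an effect of the run was not tested. The library numbers place replicate 6 of both groups in 1 run of numbers. Within that pair, E2f3 (-0.75), E2f8 (-0.84), E2f7 (-0.79), E2f1 (-0.64), E2f4 (-0.60) and Rbl2 (-0.38) had negative log2 CML 2wk to CTRL ratios. E2f2, at -0.17, was the member whose ratio in that pair was far smaller than over all libraries. With 1 library per group in that pair, no test was possible.

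After each group mean was subtracted, the tested genes whose log2 CPM followed a member most closely over the 12 libraries were, by Pearson correlation among 13740 genes, Map7 and CT485616.1 for E2f1, Gapt and Gm47467 for E2f2, Usp10 and Prrc2c for E2f3, Pafah1b1 and Med22 for E2f4, Naa30 for E2f5, Zfp266 and Cd2ap for E2f6, Sirt5 and E2f3 for E2f7, Setd1a and Mfsd4a for E2f8, Hpse and Babam1 for Rbl1 and Prr13 and Gp9 for Rbl2. These correlations ran from 0.87 to 0.97 and are the highest of many, among values that share libraries and depth. E2f7 with E2f3, at r = 0.93, was the pair made of members. Gp9, a platelet glycoprotein, followed Rbl2 at r = 0.97 with all libraries and 0.92 without CML 2wk replicate 2. That library was highest of the CML 2wk group in Rbl2 and in summed megakaryocyte markers, and in neither was it above the CTRL range. For Gp9 itself, 1 CML 2wk library, at 9.54 CPM, lay above the CTRL range of 6.34 to 8.22 CPM.

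Of 8 DNA-binding partners and MuvB genes, 2 were higher, 3 were lower and 3 did not pass (median log2 fold change -0.06), shares near those of all genes tested (30.6% higher and 29% lower). Foxm1, the activator of mitotic genes that joins MuvB late in the cycle, had 98.1 to 108.5 CPM in CTRL and 29.2 to 56.2 in CML 2wk, with no overlap and a log2 fold change of -1.24 (SE 0.127, edgeR adjusted p = 1.27e-06). Tfdp2, a DP subunit that pairs with E2F1 to E2F6, fell from 156 to 191 CPM to 68.7 to 99.8 CPM (log2 fold change -0.96, adjusted p = 4.82e-07), whereas its paralog Tfdp1 had 207 to 250.5 CPM in CTRL and 250.9 to 291 in CML 2wk (0.15, adjusted p = 0.0482, a call lost under 16 of 22 other settings). Rbbp4, a histone-binding MuvB subunit shared with other chromatin complexes, rose from 331 to 412 CPM to 501 to 757 CPM (0.71, adjusted p = 1.76e-05). The MuvB subunit Lin37 was lower (-0.35, adjusted p = 0.0232, lost under 2 settings). Lin9 (-0.08), Lin52 (0.13) and Mybl2 (-0.03), whose product B-MYB replaces pocket proteins on MuvB in S phase, did not pass.

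Among 12 cyclins, kinases and inhibitors that act on pocket proteins, 3 were higher, 6 were lower and 3 did not pass (median log2 fold change -0.40). The shares over all genes tested were 30.6% higher and 29% lower. The E cyclins rose. Ccne2 had 46.0 to 62.9 CPM in CTRL and 74.8 to 151 in CML 2wk (log2 fold change 1.16, SE 0.134, edgeR adjusted p = 4.22e-06), and Ccne1 had 11.5 to 13.8 and 19.0 to 27.3 CPM (0.89, SE 0.100, adjusted p = 3.25e-06). In both the groups were apart, while their kinase Cdk2 fell (-0.62, adjusted p = 3.84e-06). Of the D cyclins, Ccnd2 fell from 463 to 602 CPM to 235 to 329 CPM (-0.88, adjusted p = 1.31e-06) and Ccnd3 fell as well (-0.57, adjusted p = 6e-06), and Ccnd1 did not pass (-0.15, adjusted p = 0.565). Without CML 2wk replicate 2, Ccnd1 was called lower (-0.39, adjusted p = 0.0367). Their kinases moved oppositely, with Cdk4 higher (0.39, adjusted p = 0.00233) and Cdk6 lower (1641 to 2274 CPM in CTRL and 1302 to 1546 CPM in CML 2wk, -0.47, adjusted p = 0.000126). The inhibitors Cdkn2c (p18, -1.42, adjusted p = 9.52e-06) and Cdkn1b (p27, -0.43, adjusted p = 0.000565) were lower. Cdkn1c (p57, -0.37, adjusted p = 0.301) and Cdkn2d (p19, -0.06) did not pass, but without CML 2wk replicate 2 Cdkn1c was called lower (-0.80, adjusted p = 0.00134), and 8 of the 12 genes were then lower.

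G1/S targets of E2F went both ways, with 8 of 24 higher, 12 lower and 4 not called (median log2 fold change -0.13). Over all genes tested 30.6% were higher, a share near that of this list, and 29% were lower. Higher genes with a large change were Orc1, of the origin recognition complex (0.85, edgeR adjusted p = 2e-05), Rrm2, of ribonucleotide reductase (0.78, adjusted p = 7.36e-06), and the replication fork gene Gins2 (0.77, adjusted p = 1.13e-05). The lower genes with the largest change were Uhrf1, a maintenance methylation factor (-0.72, adjusted p = 1.09e-06), the checkpoint adaptor Clspn (-0.65, adjusted p = 4.44e-06), the origin licensing factor Cdt1 (-0.64, adjusted p = 1.42e-06) and the histone chaperone gene Chaf1a (-0.54, adjusted p = 2.02e-06). In each of these 7 genes the groups were apart. Rrm2, for example, had 118 to 159 CPM in CTRL and 207 to 296 in CML 2wk, and Cdt1 had 103 to 121 and 67.3 to 84.4. E2F words were found in 8 of 23 promoter windows of this list (34.8%).

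G2/M targets of DREAM were mostly lower, 14 of 22, with 3 higher and 5 not called (median log2 fold change -0.56). Calls over all genes tested were 29% lower and 30.6% higher. Mki67, the proliferation antigen Ki-67, fell from 1436 to 1765 CPM to 485 to 718 CPM (-1.38, SE 0.0914, edgeR adjusted p = 4.27e-08). The kinetochore gene Cenpf (-0.92, adjusted p = 3.2e-07), the cytokinesis motor gene Kif23 (-0.92, adjusted p = 7.24e-08) and the spindle checkpoint kinase gene Bub1b (-0.83, adjusted p = 2.94e-06) fell too. The 3 higher genes were Bub1, a checkpoint kinase (0.42, adjusted p = 0.000411), Cdk1 (0.39, adjusted p = 0.00164) and its partner Ccnb1 (0.39, adjusted p = 0.00112). CHR letters stood in 7 of 19 windows of this list (36.8%) and CCAAT in 17 of 19 (89.5%, against 33.9% of all windows). As this list and the G1/S list were chosen as target genes, their shares of matches are descriptions and were not tested. Groups did not overlap for 6 lower and 4 higher genes of the G1/S list and for 12 lower and 2 higher genes of the G2/M list, against 20.6% lower and 17% higher of all genes tested.

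**Figure D4:**
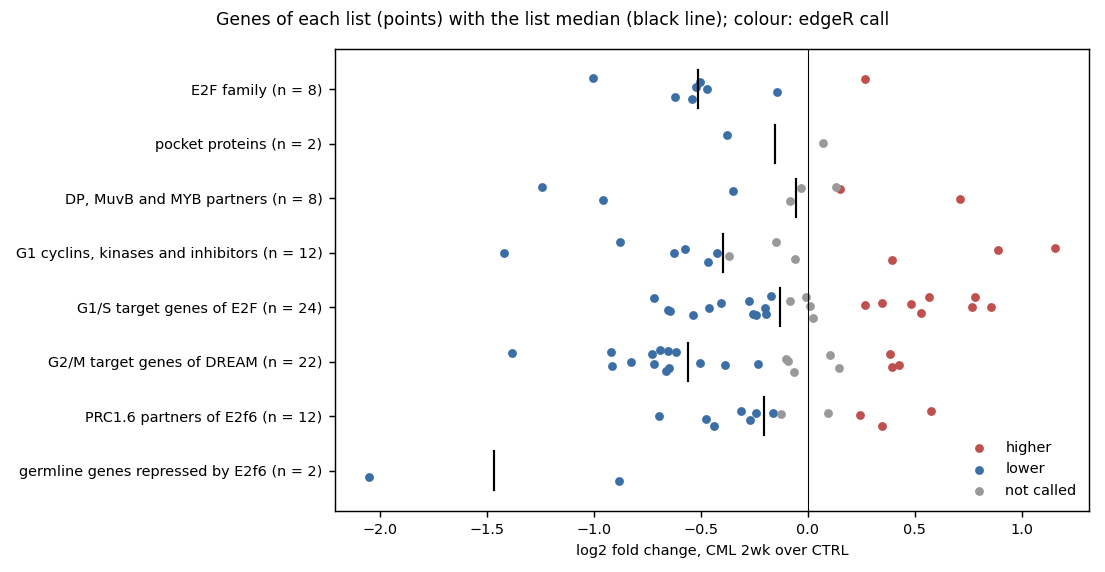
Log2 fold change (CML 2wk over CTRL, horizontal axis) of each tested gene in the E2F and pocket protein groups and in 6 lists of related genes; black lines are list medians, colours the edgeR call, and vertical scatter within a row has no meaning. G1/S targets spread on both sides of 0 around a median of -0.13, whereas G2/M targets centre on -0.56.

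The Polycomb partners of E2f6 were on balance slightly lower, with 7 of 12 lower, 3 higher and 2 not called (median log2 fold change -0.20). All genes tested had 29% lower and 30.6% higher. Rybp, an activating subunit of variant PRC1, fell (-0.70, edgeR adjusted p = 1.85e-06), while its paralog Yaf2 rose (0.57, adjusted p = 0.000144). Rybp had 32.8 to 38.6 CPM in CTRL and 18.4 to 23.9 in CML 2wk, and Yaf2 25.0 to 28.4 and 32.6 to 51.4, with no overlap between groups in either gene. Pcgf6, which defines the E2F6 complex, rose (0.35, adjusted p = 0.000137). The DNA-binding subunits Mga (-0.31, adjusted p = 0.000278) and Max (-0.24, adjusted p = 0.00974) fell, and so did L3mbtl2 (-0.44, adjusted p = 0.000136). The ubiquitin ligase gene Ring1 was lower (-0.48, adjusted p = 0.000231), its paralog Rnf2 did not pass (-0.12), and neither did the heterochromatin reader Cbx3 (0.10). Hdac1 was higher (0.24), and Hdac2 (-0.16) and Wdr5 (-0.27) were lower, with the Hdac1 and Hdac2 calls lost under 3 and 5 of 22 settings.

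Of 10 germline genes that E2F6 is known to silence in somatic cells, 2 passed the filter on low counts and both were lower. Among all genes tested, 29% were lower. Ddx4, a germ cell RNA helicase, had 5.92 to 12.5 CPM in CTRL and 0.858 to 5.25 in CML 2wk (log2 fold change -2.05, SE 0.374, edgeR adjusted p = 0.000271), and Stag3, a meiotic cohesin subunit, had 5.26 to 10.04 and 2.86 to 4.78 CPM (-0.88, SE 0.186, adjusted p = 0.000866). Mael had no count in any library. The highest of the other 7 genes was Smc1b, at up to 0.975 CPM.

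Parts of some members share genomic bases with genes on the opposite strand, and whether counting used the strand is not given in the sources used here. E2f8 shares 11.2% of its exon bases with Gm2788 (133 to 346 counts per library), and Rbl2 shares 9.17% with Aktip (304 to 736 counts) and 11.8% with Gm45464 (37 to 89 counts). E2f5 shares 1.46% with 1810022K09Rik (710 to 1729 counts), a neighbour whose counts exceed those of E2f5 (146 or more), so small changes of E2f5 are uncertain.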

How the data were processed

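RNA of flow-sorted CD45.2+Lin-Sca+Kit+ cells was made into Kapa RNA HyperPrep libraries. The authors deposited raw counts per Ensembl gene, 1 file per library, with no normalization. The submitters' processing notes name FastQC 0.11.9, fastp 0.23.2, STAR 2.7.10a, featureCounts 2.0.1, DESeq2 1.36.0 and mouse GRCm39, whereas the paper's methods name Trim Galore!, HISAT2 and hg38 for bulk RNA-seq. The annotation, the strand setting and how multi-mapping reads were handled are not given in the sources used here, and such choices can shift counts of overlapping genes and paralogs. Symbols were matched for 52073 of 56748 identifiers, and 0 entries named no gene. Lin54 was not analysed here.

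Counts were scaled by TMM and tested with edgeR 4.0.16 (quasi-likelihood, filterByExpr, 18438 genes, two-sided, Benjamini-Hochberg adjusted p under 0.05) in R 4.3.3, with group as the only term and all 12 libraries (6 and 6). Tables and plots used Python 3.11.15. The fit was tested on simulated counts that gave both groups the same spread, so the larger spread of the CML 2wk libraries was not covered. Alternatives were RLE and upper-quartile scaling, DESeq2 1.42.0, limma 3.58.1 voom with library weights, no filter, at least 10 counts in 6 libraries, an adjusted p under 0.01, the replicate number as a block, and leaving out libraries. Levels between genes were divided by exon length from GENCODE M21, an older annotation than that of the counts. Promoters are RefSeq windows of GRCm38.p6 and were not joined to count coordinates. Genes named are all members, every gene of lists of 12 or fewer where it was tested, up to 4 called genes each way of longer lists, and the 2 genes most correlated with each member, apart from 2 genes that are not reported here. Smc1b, Mael, Nkg7, Cd8a, the named stromal genes and the overlapping genes were named after their values were seen. The members and lists were chosen with earlier results of these data known. Replicates are separate recipients of pooled donor marrow, so p-values measure the spread between recipients. No 2 libraries were within sampling noise of each other (lowest chi-square per degree of freedom 3.78), and counts of PCR copies are not independent molecules.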

Additional observations from a re-analysis of the deposited data

Results flagged for a closer look

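For each member and group of 6 libraries, the highest or lowest library was compared with the range of its group, 20 groups of values in all, of which chance alone would flag about 1. A pair of libraries stood apart. Rbl1 in CTRL replicate 2 measured 196.2 CPM, below the other CTRL libraries, which began at 217.4 CPM. Rbl2 in CML 2wk replicate 2 measured 111.2 CPM, above the other CML 2wk libraries, which reached 90.4 CPM. This library also had the highest summed megakaryocyte (244 CPM), mast cell and basophil (2273 CPM) and stromal (960 CPM) markers of its group. Its LSK and stem cell (1805 CPM) and erythroid (66.4 CPM) sums were the highest of the group too.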

How the results depend on the processing

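The calls of E2f1, E2f2, E2f3, E2f4, E2f7, E2f8 and Rbl2 were the same under all 22 alternatives. The number of members called higher, 1 (E2f5), was 2 with upper-quartile factors, was 0 with no filter, without CML 2wk replicates 2 and 4, without both replicates 6 and at an adjusted p under 0.01, and ranged from 0 to 1 when 1 library was left out. The number of DP, MuvB and MYB partners called higher, 2, was 1 with RLE factors, no filter, the filter of 10 counts, without both replicates 6 and at an adjusted p under 0.01, and ranged from 1 to 2 when 1 library was left out; the gene lost was Tfdp1. Among the members, the lists of 12 or fewer genes and the called genes of the longer lists, signs turned for genes with no call: Mybl2 (log2 fold change 0.0484 with upper-quartile factors, 0.0016 with limma voom, 0.0107 without CML 2wk replicates 2 and 4, 0.0242 without both replicates 6, and -0.0721 to 0.0136 when 1 library was left out), Ccnd1 (0.0266 without both replicates 6) and Cdkn2d (0.0132 with upper-quartile factors). The cause was not tested. Uncalled genes of the longer lists are not covered by this statement. Without CML 2wk replicates 2 and 4, Ccnd1 (-0.47) and Cdkn1c (-0.86) were called lower.

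The replicate numbers did not pair the libraries, since deviations of same-numbered libraries correlated at -0.13 to 0.068 and none was closest to its own number. With the replicate number as a block, 0 members were higher and 7 lower, 1 DP, MuvB and MYB partner was higher, and E2f5 (adjusted p = 0.107) and E2f6 (adjusted p = 0.11) lost their calls in edgeR's test. Upper-quartile scaling moved the median log2 fold change of all genes from 0.07 to 0.14. Depth limits E2f5, whose counting SD (0.104 log2 units in CML 2wk, 0.0944 in CTRL) was close to its observed SD (0.118 and 0.120).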
